A study of Mus musculus with 72 samples.

Results

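The levels of 7 genes are described here in mouse embryonic stem cell lines with and without Nup133, a scaffold subunit of the nuclear pore's Y-complex. Aifm3, Aim2, Ccr1l1, Lnx1, Magohb and Nuggc were chosen because knockout and control differed in the same direction at days 0, 2 and 3 of a neural differentiation. Magoh was added as the paralogue of Magohb. The 7 genes were members of 45321 genes in the files, of which 18273 had enough counts to be tested. The choice used the measured contrast of knockout and control, so that contrast is given below as a description, without a test.

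Controls were HM1 (Nup133+/+, 40 chromosomes, XY; 2 biological replicates) and a second line, the blastocyst-derived 1A4 (Nup133+/+, Sox1gfp/+, 40 chromosomes, XY). Lines 14 and 19 are Nup133-/- clones made from HM1 by CRISPR/Cas9 editing, both labelled with 40 chromosomes and XY, the latter as likely. Line 319 is a blastocyst-derived Nup133-/- line (merm allele) with Sox1gfp/+ and, per its label, 42 chromosomes, XX, with extra chromosomes 8 and 12. It was compared with 1A4, which shares its background. Each knockout line is therefore 1 clone or 1 derivation, and the 3 lines stand for 2 backgrounds. All lines were kept in serum and LIF on mitotically inactive fibroblast feeders, which were depleted before collection at day 0. The remaining cells were plated at 8500 cells/cm2 in N2B27 medium and collected at day 2, or given 1 μM all-trans retinoic acid for the following 24 h and collected at day 3. Polyadenylated RNA of these 18 samples (6 series of 3 days, 3 controls and 3 knockouts a day) was sequenced, and levels are given as CPM, counts per 1e6 counts after scaling between samples.

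Samples held between 16.5 M and 54.4 M gene counts. Nup133 itself lay between 180 and 323 CPM in the 9 control samples and between 14.3 and 37.1 CPM in the 9 knockout samples. The 4 Y-linked genes Eif2s3y, Ddx3y, Uty and Kdm5d summed to 104 to 139 CPM in HM1 and 150 to 327 CPM in 1A4. They summed to 4.18 to 10.4 CPM in line 14 and 3.09 to 8.55 CPM in line 19, which goes against the XY labels of those lines, and to 0.181 to 0.673 CPM in line 319. The median gene of chromosome 8 was lower in line 319 than in 1A4 (log2 -0.55 to -0.37 over the 3 days), which goes against the label's extra copy, while that of chromosome 12 was higher (0.43 to 0.51). Against HM1, the chromosome 8 median lay at -0.4 to -0.23 in line 19 and at -0.08 to -0.06 in line 14. The median gene of chromosome X was also higher in line 319 than in 1A4 (0.49 to 0.7). Against HM1 it lay at -0.07 to 0.03 in line 14 and at -0.33 to 0.15 in line 19. On the 7 chromosomes that carry the genes described here, the medians of the 3 lines against their own background lay between -0.16 and 0.13. In the line 19 sample of day 2, the gene Gm42418 took 10.1% of the counts, against 0.0698% to 1.48% elsewhere. The 8 stem cell markers summed to 4680 to 5680 CPM at day 0 and were detected in every group. The 9 fibroblast markers, which the feeders express, summed to 151 to 322 CPM in controls and 105 to 174 CPM in knockouts at day 0. The same sums were 166 to 236 against 87.6 to 120 CPM at day 2 and 249 to 367 against 127 to 212 CPM at day 3, with Lum at or under 3 counts in each knockout sample. The 8 blood cell markers summed to 53.2 to 66.1 CPM in controls and 79.2 to 205 CPM in knockouts at day 0, without overlap. Their sums were 28.0 to 35.2 against 33.6 to 67.0 CPM at day 2 and 19.6 to 25.3 against 13.9 to 53.4 CPM at day 3, with Tyrobp at or under 3 counts in every sample. The 5 primitive endoderm markers summed to 9.75 to 16.8 against 8.72 to 27.6 CPM at day 0, 16.0 to 16.8 against 12.2 to 24.3 CPM at day 2 and 44.4 to 52.5 against 56.1 to 58.1 CPM at day 3. Whether these other cells had a part in the shifts below was not tested. In bulk samples, fewer cells that express a gene and less RNA per cell cannot be told apart.

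The genes belong to separate pathways. Magoh and Magohb encode nearly identical core subunits of the exon junction complex, which is laid down on mRNA at splicing and takes part in export, translation and nonsense-mediated decay. Aim2 encodes a cytosolic sensor of double-stranded DNA that assembles an inflammasome, and Ccr1l1 encodes a receptor-like protein of the chemokine receptor family. Lnx1 encodes a RING and PDZ domain ubiquitin ligase known for binding Numb. Aifm3 is a member of the apoptosis-inducing factor family of mitochondrial flavoproteins, and Nuggc encodes a nuclear GTPase of germinal centre B cells.

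The paralogues can be told apart by their reads, and the first stretch of their coding sequences is printed for that reason. The 2 stretches come from the GENCODE M21 transcripts on GRCm38, in the direction of transcription, over coding bases 7 to 126 of Magohb and 1 to 120 of Magoh. Capitals mark the 28 of 120 bases at which they differ:
Magohb: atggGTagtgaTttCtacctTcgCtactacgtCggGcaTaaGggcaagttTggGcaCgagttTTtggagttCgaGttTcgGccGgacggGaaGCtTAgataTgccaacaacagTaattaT
Magoh: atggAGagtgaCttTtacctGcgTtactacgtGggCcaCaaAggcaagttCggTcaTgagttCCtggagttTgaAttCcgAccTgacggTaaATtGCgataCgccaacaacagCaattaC
Over the 438 aligned coding bases, 356 (81.3%) were identical, and the longest run shared by the whole transcripts was 17 bases. Of the 146 aligned residues, 145 (99.3%) were identical.

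The promoters of the pair are printed because only Magohb of the pair met the 3-day criterion. They come from RefSeq (GRCm38.p6), run from 250 bases before to 50 bases after the RefSeq start site, and are written on the strand of the gene, with CG dinucleotides in capitals. The Magohb window is chr6:131293195-131293494 (minus strand) and the Magoh window is chr4:107879505-107879804 (plus strand):
Magohb promoter: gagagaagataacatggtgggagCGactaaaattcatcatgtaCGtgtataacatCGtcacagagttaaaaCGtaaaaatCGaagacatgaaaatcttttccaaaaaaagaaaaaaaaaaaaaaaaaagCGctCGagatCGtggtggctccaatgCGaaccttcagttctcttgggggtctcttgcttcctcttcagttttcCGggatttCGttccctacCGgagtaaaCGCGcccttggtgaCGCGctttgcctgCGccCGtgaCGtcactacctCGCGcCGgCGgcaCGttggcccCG
Magoh promoter: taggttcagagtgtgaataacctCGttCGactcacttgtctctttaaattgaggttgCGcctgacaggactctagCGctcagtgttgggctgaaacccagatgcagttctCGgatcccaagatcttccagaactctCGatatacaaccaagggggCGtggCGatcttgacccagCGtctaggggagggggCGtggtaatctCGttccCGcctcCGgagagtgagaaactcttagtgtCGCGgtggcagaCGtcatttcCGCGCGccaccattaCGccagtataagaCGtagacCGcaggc
The Magohb window held 25 CG and the Magoh window 22, against a median of 7 CG over the 32817 RefSeq promoters of the same length. That table held an entry for 6 of the 7 genes. The others held 30 CG (Aifm3), 10 (Lnx1), 5 (Aim2) and 3 (Ccr1l1). The motif CCAAT, searched on both strands, was in the windows of Aim2, Lnx1 and Magohb, and in 37.4% of all promoters. TATAAA, searched likewise, was in that of Ccr1l1 and in 13.6% of all. The RefSeq start sites of Aim2 and Ccr1l1 differ from the start of the counted transcript (173420604 against 173350879 on chromosome 1, and 123986715 against 123978408 on chromosome 9).

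Taking the contrast of knockout and control over all genes, edgeR's quasi-likelihood test called 0.854% of the 18273 genes at day 0, 1.6% at day 2 and 5.19% at day 3 (Benjamini-Hochberg adjusted p below 0.05). The 6 genes other than Magoh were called at all 3 days, which is how they were chosen, and nothing is read from that count. In all, 22 genes were called at the 3 days, 19 of them with 1 sign, and 12 of these lay on autosomes other than 8 and 12. The other 6 of the 12 were Rasgrp1, Srcin1, Specc1, Aplnr, Samd3 and Zfp677. Srcin1 and Specc1 lie on chromosome 11, whose median gene was lower in all 3 knockout lines (log2 -0.36 to -0.11). Nearest to the threshold inside it were Ccr1l1 at day 0 and Aifm3 at day 2 (adjusted p = 0.04 each), and Snap47 lay just outside it, with adjusted p = 0.04, 0.051 and 0.044 at the 3 days. Control and knockout samples did not overlap for 5 of the 7 genes at day 0 (Aifm3, Aim2, Lnx1, Magohb and Nuggc) and for 6 of 7 at days 2 and 3 (these 5 and Magoh), a count that the choice of the genes largely fixed. Over all genes tested, the groups did not overlap for 17.8%, 21.7% and 35.2% at days 0, 2 and 3.

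Per kb of transcript, Magoh had the highest level in controls at day 0 (222 ± 8.88 CPM per kb), followed by Magohb (17.3 ± 1.27), Aim2 (14.1 ± 0.87) and Lnx1 (3.28 ± 0.37; SD, n = 3). Ccr1l1 (1.11 ± 0.97), Aifm3 (1.01 ± 0.07) and Nuggc (0.53 ± 0.24) followed (SD, n = 3). Ccr1l1 did not stand apart from Aifm3 or Nuggc beyond its spread, but that spread mixes 2 lines. Ccr1l1 was at 1.52 and 1.81 CPM per kb in HM1 replicates 1 and 2, where Aifm3 was at 1.07 and 1.01, and Ccr1l1 had 0 counts in 1A4. In knockouts at day 0 the order of the upper levels was Magoh (223 ± 13.3 CPM per kb), Aim2 (5.10 ± 3.52) and Magohb (5.08 ± 1.64), the latter 2 within their spread, and then Nuggc (2.36 ± 0.69), Lnx1 (0.79 ± 0.23) and Aifm3 (0.43 ± 0.11; SD, n = 3).

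**Figure D1:**
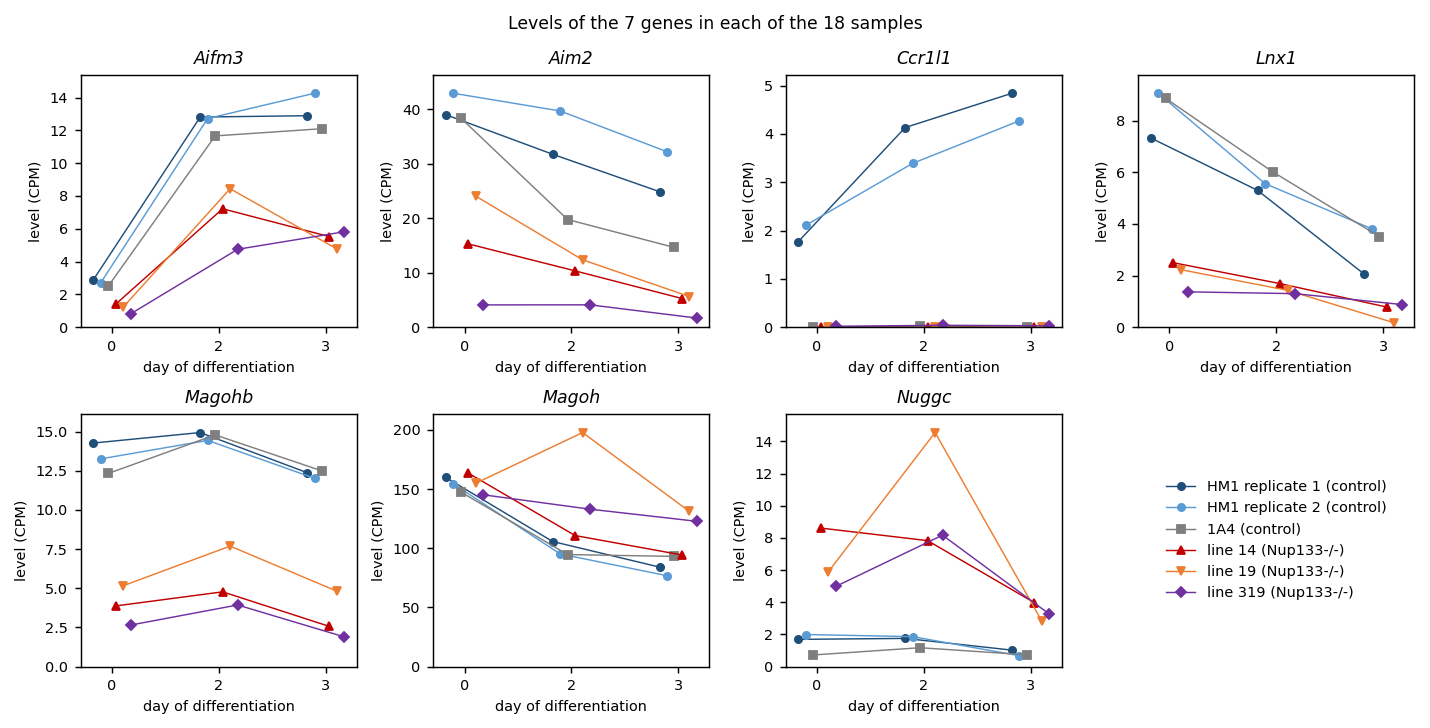
Level in CPM (vertical axes, linear and starting at 0) of each of the 7 genes in the 18 samples at day 0, 2 and 3 (horizontal axes). Each line joins the 3 days of 1 series, and each point is 1 sample. Aifm3, Aim2, Lnx1 and Magohb were lower and Nuggc higher in each of the 3 knockout lines, while Ccr1l1 was near 0 in the control 1A4 as well.

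Magohb, on chromosome 6 (131284388 to 131293244, minus strand, 5 exons, gene ENSMUSG00000030188), was lower in all 3 knockout lines on all 3 days. At day 0 Magohb was at 14.3 and 13.3 CPM in the HM1 replicates and 12.3 CPM in 1A4, against 3.87, 5.16 and 2.65 CPM in lines 14, 19 and 319. At day 2 Magohb was at 14.9, 14.4 and 14.8 CPM in the same controls and at 4.77, 7.69 and 3.93 CPM in the same knockout lines. At day 3 Magohb was at 12.4, 12.0 and 12.5 CPM in the controls and at 2.56, 4.81 and 1.89 CPM in the knockouts. The control values lay close together across the 2 backgrounds, and line 19 was the highest and line 319 the lowest of the knockouts on each day. The log2 differences of knockout and control were -1.80 ± 0.28, -1.48 ± 0.28 and -2.06 ± 0.29 (SE) over the 3 days. Against the control of its own background, Magohb was at 21.0% to 32.5% in line 14, 37.5% to 52.4% in line 19 and 15.1% to 26.6% in line 319. All 7 counted Magohb transcripts shifted alike, within -1.78 to -1.73 (log2) at day 0, within -1.69 to -1.32 at day 2 and within -2.27 to -1.77 at day 3. A read was counted for each transcript it overlapped, so transcripts of a gene share reads and their agreement was largely fixed. Line 14 was lower than line 19 by 0.67 ± 0.16 on the log2 scale over the 3 days, with an adjusted p of 0.86 in edgeR and 0.04 in DESeq2. The shift of line 319 minus the mean shift of lines 14 and 19 was -0.72 ± 0.20 (log2, SE).

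Magoh, on chromosome 4 (107879755 to 107887424, plus strand, 5 exons, gene ENSMUSG00000028609), was the more abundant of the pair and was not lower in any knockout group. At day 0 Magoh was at 159.8, 154.4 and 147.6 CPM in HM1 replicates 1 and 2 and 1A4, against 163.5, 154.9 and 145.2 CPM in lines 14, 19 and 319. At day 2 Magoh was at 105.7, 95.2 and 94.6 CPM in the controls and at 110.7, 197.8 and 133.0 CPM in the knockouts. At day 3 Magoh was at 84.1, 76.8 and 93.1 CPM in the controls and at 94.3, 131.1 and 122.7 CPM in the knockouts. The groups overlapped at day 0, whereas every knockout sample lay above every control sample at days 2 and 3, by a small margin in line 14. The log2 differences were 0.01 ± 0.18, 0.58 ± 0.18 and 0.45 ± 0.18, and none was called (edgeR, adjusted p = 1, 0.11 and 0.16). Magoh was thus outside the 3-day criterion that chose the others. Line 19 at day 2, the sample with the high share of Gm42418, had the highest value. Against their own background, lines 14, 19 and 319 stood at 110.2%, 196.9% and 140.5% at day 2.

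Compared per kb of transcript, Magohb made up a small share of the pair's summed level, and the share differed between genotypes. At days 0, 2 and 3 the Magohb share in controls was 7.22% ± 0.225, 11.9% ± 0.534 and 11.6% ± 0.793 (SD, n = 3). In knockouts it was 2.21% ± 0.656, 3.24% ± 0.586 and 2.32% ± 0.918 on the same days (SD, n = 3). The lowest control share at any day was 7.01% and the highest knockout share 3.74%. The share is made of the Magohb values that chose the gene, so the choice largely fixed this separation. The summed level of the pair was 240.0 ± 10.1 CPM per kb in controls and 228 ± 14.2 in knockouts at day 0 (SD, n = 3). It was 162 ± 9.23 against 220.0 ± 67.7 at day 2 and 138 ± 12.1 against 172 ± 28.9 at day 3 (SD, n = 3). At day 0 the summed level differed by less than the spread over the knockout samples.

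**Figure D2:**
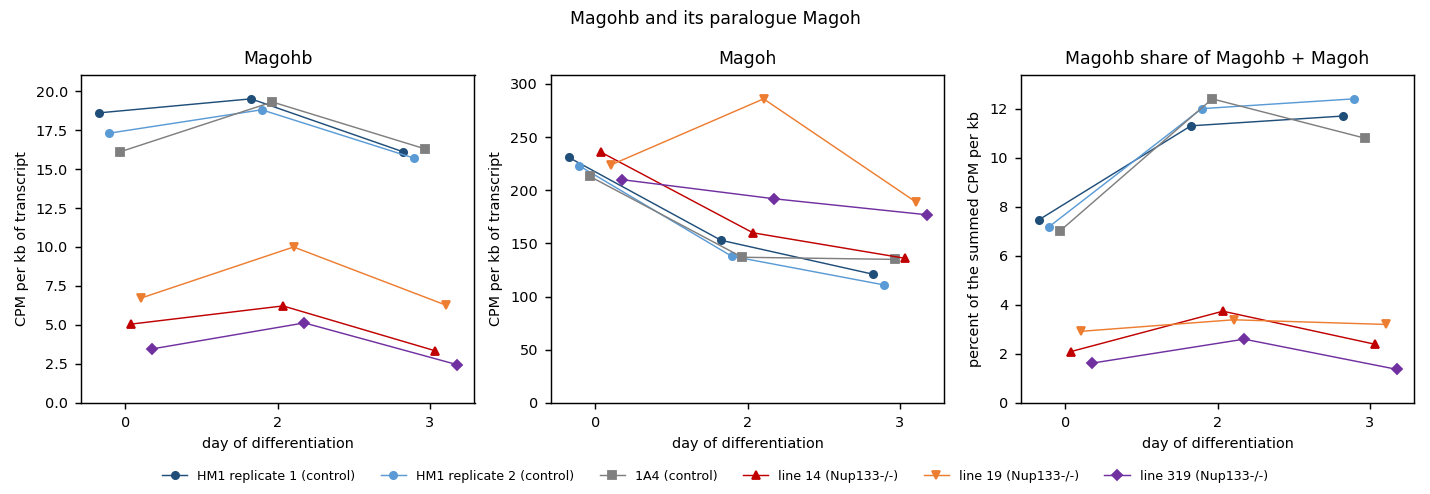
Magohb (left) and Magoh (middle) in CPM per kb of transcript, and the share of Magohb in the sum of both in percent (right), in each of the 18 samples at day 0, 2 and 3; vertical axes start at 0. The Magohb share lay between 7.01% and 12.4% in controls and between 1.37% and 3.74% in knockouts.

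Of 22 other genes of the exon junction complex and its partners, from cores such as Eif4a3, Rbm8a and Casc3 to decay factors such as Upf1 and Smg6, edgeR called 0 between knockout and control at any day. At an unadjusted p under 0.05 the numbers were 2, 4 and 8 at days 0, 2 and 3. Over all 18273 genes tested they were 1946, 3735 and 4004, the background for the lists below as well. DESeq2 called 1 (Casc3), 1 (Casc3) and 3 (Casc3, Upf2 and Upf3b). Casc3, a core subunit on chromosome 11, was at 124.9 ± 14.3 CPM in controls and 100.7 ± 9.39 CPM in knockouts at day 0 (SD, n = 3, log2 -0.31 ± 0.10, edgeR adjusted p = 0.22). The median gene of chromosome 11 was lower in all 3 knockout lines (log2 -0.36 to -0.11), and the part of that chromosome in the Casc3 difference was not tested. The list's median log2 differences were -0.06, 0.03 and 0.04, against 0.01, 0.02 and 0.02 over all genes. Eif4a3, the helicase that clamps the complex on RNA, was at 310 ± 24.3 CPM in controls and 263 ± 14.0 CPM in knockouts at day 0 (SD, n = 3, log2 -0.23 ± 0.18, edgeR adjusted p = 0.76). Upf3b, a bridge between the complex and decay, lies on chromosome X, whose median gene was higher in line 319 than in 1A4. Upf3b was at 39.9 ± 3.04 against 67.8 ± 21.6 CPM at day 3 (SD, n = 3, log2 0.71 ± 0.24, edgeR adjusted p = 0.095). The part of chromosome X in this difference was not tested.

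Aim2, on chromosome 1 (173350879 to 173466040, plus strand, counted transcript of 12 exons, gene ENSMUSG00000037860), was lower in all 3 knockout lines, and by unequal amounts. At day 0 Aim2 was at 39.0, 42.9 and 38.4 CPM in HM1 replicates 1 and 2 and 1A4, against 15.3, 24.1 and 4.10 CPM in lines 14, 19 and 319. At day 2 Aim2 was at 31.7, 39.7 and 19.8 CPM in the controls and at 10.3, 12.4 and 4.11 CPM in the knockouts. At day 3 Aim2 was at 24.9, 32.2 and 14.6 CPM in the controls and at 5.27, 5.63 and 1.68 CPM in the knockouts. Groups did not overlap on any day, although line 19 at day 0 was above 1A4 at days 2 and 3. The log2 differences were -1.77 ± 0.34, -1.85 ± 0.34 and -2.60 ± 0.35 (SE). Against their own background, lines 14 and 19 shifted by -1.42 and -0.77 at day 0 and by -2.44 and -2.34 at day 3 (log2). Line 319 shifted by -3.23, -2.27 and -3.12 at the 3 days. All 7 counted Aim2 transcripts, which share reads, were lower, within -1.52 to -1.0 (log2) at day 0 and -3.16 to -1.98 at day 3. Among the controls, 1A4 was lower than HM1 by 0.61 ± 0.19 on the log2 scale over the 3 days, which was not called (edgeR adjusted p = 0.36).

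Of 10 other tested genes of cytosolic DNA sensing and the inflammasome, edgeR called 0 at any day (2, 1 and 2 at an unadjusted p under 0.05), and DESeq2 called 1, Pycard at day 3. Their median log2 differences were -0.08, 0.34 and -0.14. Pycard, the adaptor that Aim2 recruits, was at 7.47 ± 2.81 CPM in controls and 3.59 ± 3.05 CPM in knockouts at day 3 (SD, n = 3, log2 -1.18 ± 0.33, edgeR adjusted p = 0.053). Cgas, the other main sensor of cytosolic DNA, was at 1.70 ± 0.58 and 2.39 ± 1.21 CPM at day 0 (SD, n = 3, log2 0.47 ± 0.29, edgeR adjusted p = 0.65).

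Ccr1l1, a single-exon gene on chromosome 9 (123977243 to 123978408, minus strand, gene ENSMUSG00000064039), was detected in HM1 and at most at 1 count elsewhere. HM1 replicate 1 held 68, 184 and 180 Ccr1l1 counts at days 0, 2 and 3, and HM1 replicate 2 held 88, 146 and 128. Control line 1A4 held 0, 1 and 0 counts. Lines 14 and 19 held 0 counts at every day, and line 319 held 1 count at each day. The 6 HM1 samples were thus the only ones above 1 count, and the other control was near 0 like the knockouts. With 3 counts as the limit that 0 allows in a library, Ccr1l1 was at least 18.9-, 66.0- and 92.0-fold lower in line 14 than in the mean of HM1 at days 0, 2 and 3. Line 19 was at least 27.8-, 16.6- and 44.3-fold lower. Line 319 and 1A4 were both at or under the limit, so no fold is given for them. Ccr1l1 was thus shifted in the 2 derivatives of HM1 and not detectably in line 319.

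The contrast of 1A4 with HM1, both Nup133+/+, was not used in the choice, and 0.339% of all genes were called in it. Neither edgeR nor DESeq2 called Aifm3, Aim2, Lnx1, Magohb, Magoh or Nuggc, whose log2 differences in edgeR lay between -0.71 (Nuggc) and 0.19 (Lnx1). Ccr1l1 passed the filter on low counts through HM1 alone, so its difference is described and not tested. It was at least 16.2- and 58.4-fold lower in 1A4 than in HM1 at days 0 and 3, where 1A4 held 0 counts. At day 2, with 1 count in 1A4 and 330 in HM1, the level in HM1 was 187-fold that in 1A4 (exact 95% interval 33.3 to 7390, counting error only). Among the 45321 genes, Ccr1l1 was the only one with at least 20 counts in each of the 6 HM1 samples and at most 3 in each of the 12 others, a rule set after its values were seen. Of 6 other tested chemokine receptors, 1 was called, Ccr4, at day 2. Ccr4 was at 0.21 ± 0.09 CPM in controls and 0.99 ± 0.34 CPM in knockouts then (SD, n = 3, log2 2.19 ± 0.40, edgeR adjusted p = 0.014), and was not called at day 0 (adjusted p = 0.1) or day 3 (adjusted p = 0.087). DESeq2 called Ccr4 at all 3 days, and also Ackr3 at day 2 and Ccr7 at day 3. The medians of the 6 were 0.13, 0.18 and 0.72.

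Lnx1, on chromosome 5 (74592447 to 74702912, minus strand, counted transcript of 11 exons, gene ENSMUSG00000029228), was lower in all 3 knockout lines at every day. At day 0 Lnx1 was at 7.33, 9.06 and 8.86 CPM in HM1 replicates 1 and 2 and 1A4, against 2.5, 2.23 and 1.37 CPM in lines 14, 19 and 319. At day 2 Lnx1 was at 5.30, 5.56 and 6.02 CPM in the controls and at 1.69, 1.43 and 1.30 CPM in the knockouts. At day 3 Lnx1 was at 2.05, 3.81 and 3.51 CPM in the controls and at 0.78, 0.17 and 0.88 CPM in the knockouts. The groups did not overlap on any day, and the lowest value, line 19 at day 3, rested on 5 counts. The log2 differences were -2.05 ± 0.38, -1.91 ± 0.39 and -2.30 ± 0.41 (SE). Against their own background, line 14 shifted by -1.91 to -1.68 and line 319 by -2.7 to -2.0 (log2). Line 19 shifted by -1.88, -1.92 and -4.09 at days 0, 2 and 3. Exons of the counted Lnx1 transcript overlap those of Fip1l1 on the opposite strand by 307 bases, the only overlap among the 7 genes, so part of its level is uncertain.

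Lnx1 has an upstream and an internal start, and the share of its counts found only with the upstream start was 21.1% in controls and 20.8% in knockouts at day 0, over the summed counts. It was 21.6% against 26.1% at day 2 and 23.7% against 25.6% at day 3. Single samples ranged from 14.9% to 23.6% in controls at day 0 and from 5.26% to 33.3% in knockouts at day 2, so no difference stood out from the spread. All 9 counted transcripts shifted alike, from -2.07 to -1.95 at day 0 (log2), which their shared reads largely fixed. Of 5 other genes of the LNX family and Numb, 1 was called, Pdzrn3, another RING and PDZ ligase. Pdzrn3 was at 43.8 ± 5.50 CPM in controls and 96.0 ± 42.3 CPM in knockouts at day 3 (SD, n = 3, log2 1.01 ± 0.26, edgeR adjusted p = 0.038). Lnx2, the closest paralogue of Lnx1, was at 16.2 ± 0.84 and 15.2 ± 2.67 CPM at day 0 (SD, n = 3, log2 -0.10 ± 0.17, edgeR adjusted p = 0.95). The medians of the 5 were -0.10, 0.02 and 0.02.

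Aifm3, on chromosome 16 (17489611 to 17507485, plus strand, 21 exons, gene ENSMUSG00000022763), was lower in all 3 knockout lines, with smaller fitted differences than Aim2, Lnx1 and Magohb at each day. At day 0 Aifm3 was at 2.89, 2.72 and 2.51 CPM in HM1 replicates 1 and 2 and 1A4, against 1.41, 1.23 and 0.82 CPM in lines 14, 19 and 319. At day 2 Aifm3 was at 12.8, 12.7 and 11.7 CPM in the controls and at 7.22, 8.44 and 4.75 CPM in the knockouts. At day 3 Aifm3 was at 12.9, 14.3 and 12.1 CPM in the controls and at 5.52, 4.77 and 5.82 CPM in the knockouts. The groups did not overlap on any day, and the order of the 3 knockout lines changed between days. The log2 differences were -1.25 ± 0.22, -0.89 ± 0.20 and -1.27 ± 0.20 (SE). Both counted transcripts, which share reads, shifted alike, by -1.23 and -1.18 at day 0. The 9 shifts of single lines against their own background lay between -1.62 and -0.60. The other AIF genes, Aifm1 and Aifm2, and the import partner Chchd4 gave 0 calls at any day in edgeR and in DESeq2 (1, 0 and 0 at an unadjusted p under 0.05 in edgeR). Aifm1, the family's founding member, lies on chromosome X, whose median gene was higher in line 319 than in 1A4. Aifm1 was at 94.4 ± 5.89 and 134.7 ± 65.3 CPM at day 0 (SD, n = 3, log2 0.45 ± 0.22, edgeR adjusted p = 0.48). The medians of the 3 were 0.45, 0.26 and 0.00.

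Nuggc, on chromosome 14 (65598546 to 65648531, plus strand, 19 exons, gene ENSMUSG00000061356), was the only one of the chosen genes that was higher in the knockouts. At day 0 Nuggc was at 1.69, 1.99 and 0.72 CPM in HM1 replicates 1 and 2 and 1A4, against 8.61, 5.88 and 4.98 CPM in lines 14, 19 and 319. At day 2 Nuggc was at 1.75, 1.86 and 1.17 CPM in the controls and at 7.83, 14.5 and 8.17 CPM in the knockouts. At day 3 Nuggc was at 1.02, 0.67 and 0.73 CPM in the controls and at 3.97, 2.82 and 3.26 CPM in the knockouts. Every knockout sample of the 9 lay above every control sample of the 9. The log2 differences were 2.16 ± 0.31, 2.68 ± 0.31 and 2.06 ± 0.32 (SE). Against its own background, line 14 shifted by 2.12 to 2.23, line 19 by 1.67 to 3.01 and line 319 by 2.16 to 2.80 (log2). Both counted transcripts, which share reads, shifted alike, by 2.14 and 2.15 at day 0. The summed blood cell markers were also higher in knockouts at day 0 (medians 80.6 against 62.3 CPM), with Ptprc and Tyrobp at or under 3 counts in each knockout sample, and their part in the Nuggc shift was not tested. Of 4 other tested genes of antibody diversification and the germinal centre, among them Bcl6 and S1pr2, edgeR and DESeq2 called 0 at any day (0, 0 and 2 at an unadjusted p under 0.05 in edgeR). Bcl6, a transcriptional repressor of germinal centre B cells, was at 2.83 ± 0.74 and 2.78 ± 0.37 CPM at day 0 (SD, n = 3, log2 -0.02 ± 0.24, edgeR adjusted p = 1). The medians of the 4 were 0.02, 0.08 and -0.43.

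**Figure D3:**
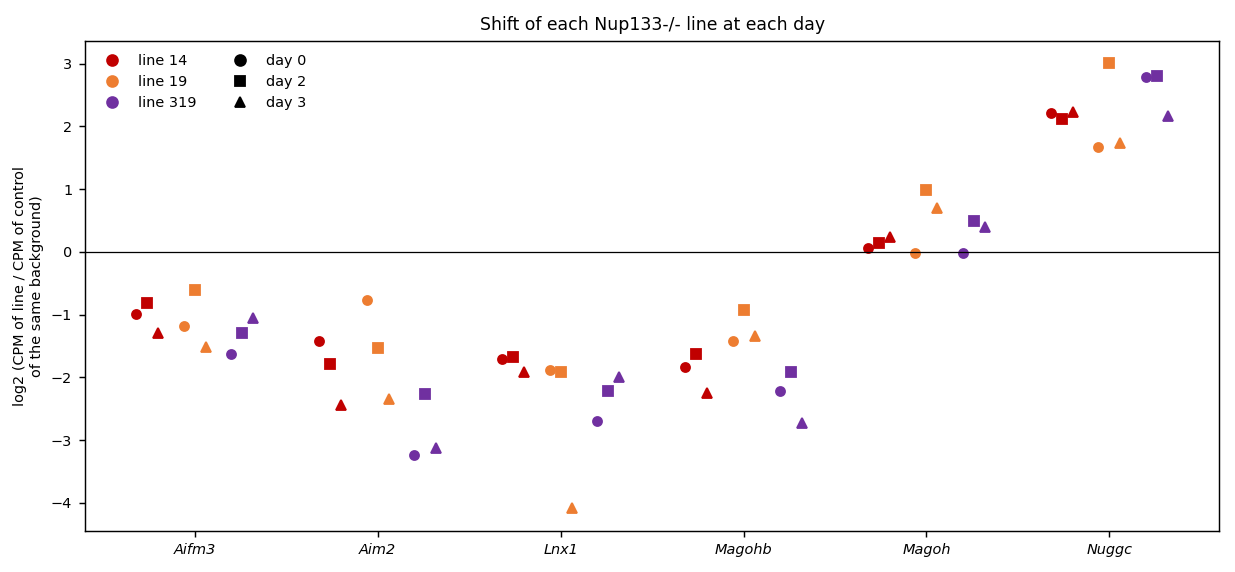
Log2 ratio of the CPM of each knockout line to the CPM of the control of its own background (HM1 mean for lines 14 and 19, 1A4 for line 319; vertical axis) for 6 genes (horizontal axis), coloured by line, with the day as symbol; each point is 1 sample against its control. Ccr1l1 is left out because both samples of the 319 pair were at or under the floor. Aifm3, Aim2, Lnx1 and Magohb lie below 0 and Nuggc above 0 at all 9 points, and Magoh between -0.02 and 0.98.

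The shift of 5 of the 6 chosen genes was shared by the 3 lines: Aifm3, Aim2, Lnx1 and Magohb were lower and Nuggc higher than in the control of the same background in 9 of 9 line and day combinations. The choice of the genes largely fixed that count, and lines 14 and 19 were compared with the same HM1 mean. Low Y-linked sums and lower medians of chromosomes 8 and 11 were also found in all 3 knockout lines, that of chromosome 8 only slightly in line 14 (log2 -0.08 to -0.06). In this design, they and the loss of Nup133 cannot be told apart. The shift of line 319 minus the mean shift of lines 14 and 19 is a contrast in which edgeR called 2.58% of all genes. It is built from the knockout and control values that chose the genes, so their differences are given without a test. They were -1.19 ± 0.27 for Aim2, whose shift was larger in line 319 than in either clone at every day, and -0.22 ± 0.26 for Aifm3. They were -0.26 ± 0.46 for Lnx1 and 0.36 ± 0.40 for Nuggc (log2, SE). For Ccr1l1 no difference is given, since line 319 and 1A4 were both at or under the floor. Between the clones 14 and 19, edgeR called 0% of all genes and 0 of the 7 members (847 genes had an unadjusted p under 0.05, and DESeq2 called 11 genes), with Ccr1l1 untestable at 0 counts. Between the HM1 replicates, edgeR likewise called 0% of all genes and 0 of the 7 (114 genes had an unadjusted p under 0.05, and DESeq2 called 0).

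Changes between days within a genotype were not the contrast that chose the genes. They use the same group values, so their calls are not independent of the choice. In controls, 35.2% of all genes were called from day 0 to day 2 and 21.4% from day 2 to day 3. In knockouts the shares were 35.9% and 33.6%. From day 0 to day 2, Aifm3 rose in controls by 2.20 ± 0.21 (log2, SE, 4.59-fold, edgeR adjusted p = 3.4e-06) and in knockouts by 2.56 ± 0.22 (5.91-fold, adjusted p = 1.2e-06), in 3 of 3 series of each genotype. Magoh fell in controls by 0.64 ± 0.18 on the log2 scale over the same interval (1.56-fold, edgeR adjusted p = 0.013), in 3 of 3 series, and without control replicate 1, 2 or 3 the adjusted p was 0.1, 0.11 or 0.073. The Magoh change in knockouts was -0.07 ± 0.18 (adjusted p = 0.78). Of the 7 genes, 2 were therefore called in controls (Aifm3 and Magoh) and 1 in knockouts (Aifm3), no larger a share than over all genes. Ccr1l1 could not be tested in knockouts at its counts of 0 and 1. Magohb changed by 0.48 ± 0.28 in knockouts, which was called with a replicate block for series (0.48, adjusted p = 0.04) and not without it (adjusted p = 0.2).

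From day 2 to day 3, the interval with retinoic acid, 1 of the 7 genes was called in controls and 4 in knockouts, all lower at day 3. Ccr1l1 could not be tested in knockouts. Over all genes, 21.4% were called in controls and 33.6% in knockouts, where 2916 of the 6141 called genes were lower. Nuggc fell in controls by 0.95 ± 0.32 on the log2 scale (edgeR adjusted p = 0.045), in 3 of 3 series. With the replicate block the Nuggc change was -0.94 (adjusted p = 0.068), and without control replicate 1, 2 or 3 or knockout line 14 the adjusted p was 0.19, 0.34, 0.078 or 0.054. In knockouts Nuggc fell by 1.57 ± 0.30 (2.96-fold, adjusted p = 0.0011), in 3 of 3 lines. Aim2 fell in knockouts by 1.11 ± 0.34 on the log2 scale (edgeR adjusted p = 0.022), Lnx1 by 1.24 ± 0.41 (adjusted p = 0.031) and Magohb by 0.83 ± 0.28 (adjusted p = 0.034), each in 3 of 3 lines. The calls of Aim2 and Magohb depended on a single library, and all 3 calls on single series. Without the line 19 sample of day 2 the changes of Aim2 and Magohb were -0.99 (adjusted p = 0.062) and -0.60 (adjusted p = 0.12). Without line 14, the change of Aim2 was -1.19 (adjusted p = 0.091). Magohb also lost its call without control replicate 1 or 2 or without line 14 or 319 (adjusted p = 0.056 to 0.11), and Lnx1 in 5 of the 6 fits that left out 1 control replicate or 1 knockout line (adjusted p = 0.058 to 0.097). Over the same interval in controls, Aim2 changed by -0.36 ± 0.33, Lnx1 by -0.85 ± 0.37 and Magohb by -0.26 ± 0.27, none of them called by edgeR over all samples. DESeq2 called the Lnx1 change in controls (-0.86, adjusted p = 0.04), as did edgeR without line 19 (-0.86, adjusted p = 0.027). Whether the day changes differed between the genotypes was not tested, because that difference is made of the contrast that chose the genes.

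**Figure D4:**
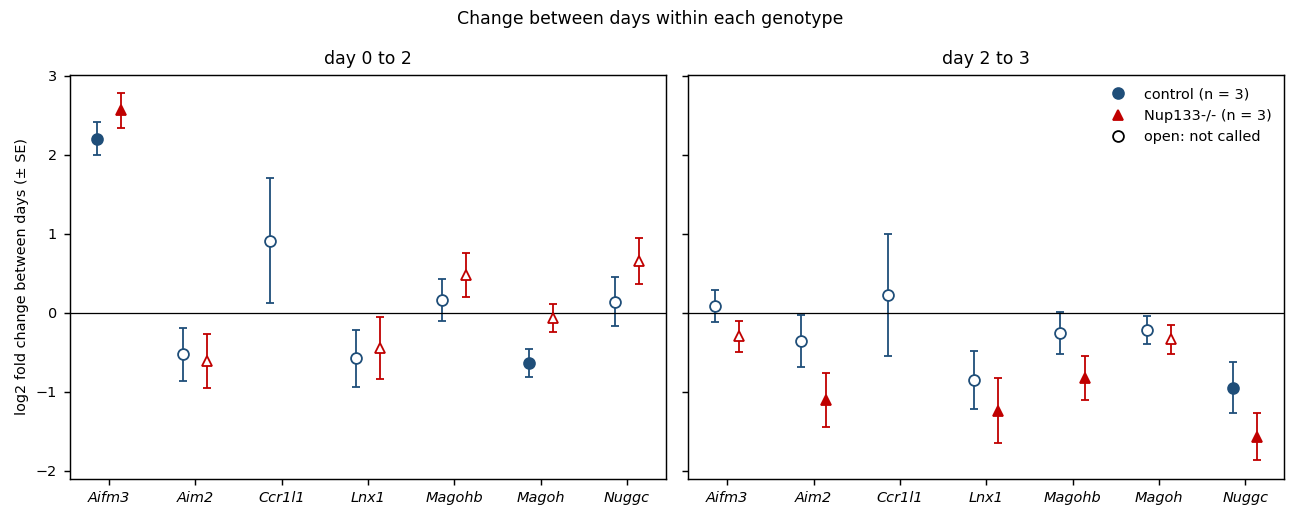
Log2 fold change from day 0 to 2 (left) and from day 2 to 3 (right), with its SE as bar, for each gene in controls (circles, n = 3) and knockouts (triangles, n = 3); filled symbols were called by edgeR and open symbols were not. Ccr1l1 in knockouts is not drawn, since it was at or under 1 count. Aifm3 rose in both genotypes by day 2, and Aim2, Lnx1, Magohb and Nuggc fell in knockouts from day 2 to 3.

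The genes most similar in pattern were found by Pearson's r of log2 CPM over the 18 samples after removal of each day's mean, as a description. All samples of a series share a line, so the 18 points are not independent. The difference of knockout and control that chose the genes also stays in these values. The choice therefore largely fixed that genes with a knockout shift, Nup133 and other chosen genes among them, came out as similar. Magohb was closest to Nup133 (r = 0.966), Eif2s3y (0.942) and Aifm3 (0.93). Aim2 was closest to Nup88 (0.973), Eif2s3y (0.95) and Sfi1 (0.949), and Aifm3 to Elmo3 (0.947), Snap47 (0.946) and Nup133 (0.933). Lnx1 was closest to Camsap3 (0.96), Usp43 (0.944) and Tjp3 (0.94), and Ccr1l1 to Strada (0.927), Akr1c14 (0.898) and Aurkc (0.896). Among the genes closest to Magoh were Smn1 (0.962) and Dnajc9 (0.958), and Nuggc was closest to Mcm7 (0.928), Ddx39b (0.923) and Rabl2 (0.92). Of the 18 different genes found in this way that are not among the 7, 5 lie on chromosome 11 and 3 on chromosome 8. The median gene of chromosome 11 was lower in all 3 knockout lines (log2 -0.36 to -0.11 over 9 line and day combinations), as was that of chromosome 8 (-0.55 to -0.06). None of the 7 genes lies on either. Among the 7, the highest r was 0.93 (Aifm3 with Lnx1, Aifm3 with Magohb, and Aim2 with Magohb), and that of Magohb with Magoh was -0.44.

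The genes next to the 7 were compared between the genotypes in the same fit. Of 65 tested neighbours, up to 5 on each side of each gene, edgeR called 0 between knockout and control at day 0, 3 at day 2 and 4 at day 3. At an unadjusted p under 0.05 these numbers were 11, 16 and 20, against 1946, 3735 and 4004 of all 18273 genes. DESeq2 called 2, 9 and 10 of the neighbours. The shares called by edgeR were 4.62% at day 2 and 6.15% at day 3, against 1.6% and 5.19% of all genes, and by DESeq2 13.8% and 15.4%, against 7.69% and 11.3%. Neighbours of Aifm3, Ccr1l1 and Magohb gave 0 calls in edgeR, and in DESeq2 only Ybx3, near Magohb, was called among them (day 3). Near Lnx1, Pdgfra, a growth factor receptor whose start is 449.4 kb away, was higher (log2 1.47 and 1.45 at days 2 and 3, edgeR adjusted p = 0.032 and 0.015). Kdr, the receptor of vascular endothelial growth factor 1275.5 kb away, was lower (-2.31 and -1.98, adjusted p = 0.02 and 0.011). Near Nuggc, the scavenger receptor gene Scara5 at 67.9 kb was higher at day 3 (1.39, edgeR adjusted p = 0.013), whereas Elp3, on the other side (start sites -5.5 kb apart), was not called by edgeR (0.32, 0.40 and 0.16) and was called by DESeq2 at day 2. Near Aim2, Tagln2 was lower at day 3 (-0.72, edgeR adjusted p = 0.042), and near Magoh, the lipoprotein receptor gene Lrp8 was lower at day 2 (-0.98, adjusted p = 0.014).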

How the data were processed

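The 72 tables deposited by the authors hold raw counts per Ensembl transcript. The submitters' processing notes name bcl2fastq 2.17.1.14, STAR 2.4.0k, SAMtools, HTSeq and the build mm10. The use of strand and the annotation release are not given in the sources used here. The 4 technical files of a sample (chi-square per degree of freedom 1.01 to 1.03) were added up to 18 biological samples. Transcripts were matched to GENCODE M21 (108214 of 110379 identifiers), and unmatched ones held 1.44% to 2.46% of a sample's counts. A read was counted for each transcript it overlapped, so each gene was represented by its transcript with the highest total.

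Genes were tested with edgeR 4.0.16 (limma 3.58.1, R 4.3.3): TMM scaling, filterByExpr, a robust quasi-likelihood fit and Benjamini-Hochberg adjustment over the 18273 genes tested, called below 0.05. One fit took genotype by day as 6 groups, plus the genetic background (11 residual degrees of freedom), and a second took the 6 series and day within genotype (8) and gave the contrasts between lines. Replicates were 3 controls (HM1 replicates 1 and 2, 1A4) and 3 knockout lines (14, 19, 319). The labels do not say whether the HM1 replicates came from separate cultures, so p-values measure only the spread between these samples. Samples of 1 series share a line, which pairs the days; their deviations from the group means correlated above 0.1 in 16 of 18 pairs (-0.09 to 0.4). Bounds against 0 used 3 counts per library and cover counting error only. The scripts were tested on simulated data. DESeq2 1.42.0, other scalings, filters, transcripts and samples were the alternatives. Sequences were compared with Biopython 1.88.

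The members and lists were chosen with earlier results of these data known. Named are the 7 genes in every sample, the 3 most similar genes of each with a regular symbol, called genes among the 5 nearest tested neighbours on each side, and called genes of 6 lists, at most 6 a list; other genes of the lists were named after their values were seen, for their role. Of the genes this rule selects, 1 similar gene is not reported here.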

Additional observations from a re-analysis of the deposited data

How the results depend on the processing

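In each alternative run for them, the knockout against control differences of the 6 chosen genes kept their sign (15 fits for Ccr1l1, which had none in single-day fits, and 16 for the others, the reported fit included). The choice of the genes largely fixed this, as the fits share samples with the contrast that chose them. The lowest and highest log2 values of these differences were -1.40 and -0.71 for Aifm3, -2.77 and -1.04 for Aim2, -2.58 and -1.76 for Lnx1, -2.45 and -1.22 for Magohb, and 1.84 and 2.89 for Nuggc over the 3 days. For Ccr1l1 they were -10.55 and -5.23, fitted values that depend on the prior count. The replicate block by series changed 2 calls, of Magohb in knockouts from day 0 to 2 (0.48) and of Nuggc in controls from day 2 to 3 (-0.94), and no other call. Signs turned for values near 0: Nuggc in controls from day 0 to 2 without control replicate 3 (range -0.03 to 0.30 over left-out replicates), Magoh in knockouts from day 0 to 2 without line 14 (range -0.33 to 0.13), Magoh in knockout against control at day 0 (0.01, or -0.02 and -0.01 without line 14 and line 19), and the Magoh difference between backgrounds without the line 19 sample of day 2 (0.02).

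The counts of all genes called depended more on the setting; the cause was not tested. For knockout against control, the counts at days 0, 2 and 3 were 156, 292 and 948, DESeq2 gave 560, 1406 and 2063, and single-day edgeR fits 244, 0 (1459 with an unadjusted p under 0.05) and 2546. Without the line 19 sample of day 2, days 0 and 3 gave 378 and 2994, without a background term days 2 and 3 gave 185 and 516, and HM1-derived lines alone gave 313 at day 0. Leaving out 1 replicate gave 18 to 406, 22 to 1373 and 17 to 2020 genes. In the day changes this gave 2833 to 8900 and 1215 to 6361 in controls (main 6439 and 3918, the latter 6094 without the line 19 sample of day 2) and 3813 to 7712 and 4341 to 7584 in knockouts (6561 and 6141). Between 14 and 19 DESeq2 called 11 (edgeR 0), between 1A4 and HM1 240 (edgeR 62, or 195 without the line 19 sample of day 2), and for the difference between backgrounds 1361 (edgeR 471, or 1586 without that sample). The 3 samples a group and the low counts of Lnx1 and Nuggc limit the precision.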
